A study of Mus musculus with 6 samples.

Results

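The kynurenine pathway is the main route of tryptophan breakdown. The 7 genes described here, Ido1, Tdo2, Afmid, Kmo, Kynu, Haao and Qprt, encode its enzymes from the opening of the tryptophan ring to the use of quinolinate. They were listed by name, and each was represented by the brightest probe annotated to its symbol alone, so the probes were chosen by mean level over all 6 arrays. Each of the 7 had a single such probe among the 19938 named genes on the array, and the probe choice did not use the group of a sample. The genes were listed with earlier results of these data known.

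The cells were pre-B cells transformed by the leukemic fusion kinase BCR-ABL1, taken from Balb/c mice aged 4 weeks, labelled as Blnk knockout in both groups. Blnk, also called Slp65, is a cytoplasmic adaptor through which the pre-B cell receptor reaches PLCG2 and calcium signalling. In 3 samples the cells had been transduced with Blnk, and in the other 3 with pMIG, a retroviral vector that carries GFP. At 5 days from transduction, cells with GFP were sorted, and the total RNA of each sample was measured on 1 Affymetrix array. The labels do not say whether the samples of a group were separate cultures or animals, so the spread behind each p-value is the spread of these samples alone and could be technical.

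In the first step of the pathway, IDO1 or TDO2 oxidizes tryptophan to N-formylkynurenine, and AFMID turns this into kynurenine. KMO, a FAD-dependent enzyme of the outer mitochondrial membrane, hydroxylates kynurenine, KYNU cleaves the product to 3-hydroxyanthranilate, and HAAO opens that ring to give the precursor of quinolinate. QPRT uses quinolinate to make a precursor of NAD. TDO2 is known mainly from liver, and IDO1 from dendritic cells and macrophages exposed to interferon.

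The deposited values were intensities on a linear scale that had been made with RMA, a method that corrects, normalizes and summarizes the probes of Affymetrix arrays. The median intensity of all probes was 69.0 to 70.0 on the Blnk arrays and 67.0 to 69.0 on the pMIG arrays. Blnk itself had intensities of 2714, 3342 and 3022 in the Blnk samples, against 972, 926 and 1013 in the pMIG samples (log2 fold change 1.64, SE 0.0914, limma adjusted p = 0.000101). The groups did not overlap. The position of the probe relative to the deleted part of Blnk is not given in the labels, so the pMIG level is no check of the knockout. The labelled cell type was checked on 9 B-lineage markers, none of which was below an intensity of 956 on any array. Among them Igll1, a part of the surrogate light chain, averaged 9221 ± 222 in Blnk samples and 10485 ± 350 in pMIG samples, and Cd79a, a chain of the receptor, averaged 6126 ± 227 in Blnk samples and 4943 ± 53.8 in pMIG samples (SD, n = 3 each). Of the 9 markers 3 rose, Cd79a (log2 fold change 0.31), the kinase Blk (0.88) and Cd72 (0.63), and 1 fell, Vpreb1, the partner of Igll1 (-0.68), with limma adjusted p of 0.0468, 0.000649, 0.00247 and 0.00976. Over all 19938 genes, 2.51% rose and 1.10% fell by the same test. The summed intensity of the 9 was 31063 to 32904 in the Blnk samples and 29956 to 30972 in the pMIG samples. Their part in the results below was not tested.

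Both genes of the pathway that changed, Kmo and Haao, rose with Blnk, and their promoter windows are shown because no other member passed the test. Each runs from 250 bases before to 50 bases after a transcript start, taken from RefSeq on build GRCm38.p6, and 5 of the 7 genes were in that table. The Kmo window is at chr1:175631943-175632242 on the plus strand, and the Haao window at chr17:83846741-83847040 on the minus strand. Capitals mark the match to GAGGAAGT, the ETS site that PU.1 and SPIB are known to bind:
Kmo: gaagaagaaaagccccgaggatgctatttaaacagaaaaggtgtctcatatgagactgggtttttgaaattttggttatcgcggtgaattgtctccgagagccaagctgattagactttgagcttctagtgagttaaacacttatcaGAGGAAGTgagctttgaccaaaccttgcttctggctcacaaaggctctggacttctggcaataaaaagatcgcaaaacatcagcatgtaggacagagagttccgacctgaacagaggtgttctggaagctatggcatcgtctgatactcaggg
Haao: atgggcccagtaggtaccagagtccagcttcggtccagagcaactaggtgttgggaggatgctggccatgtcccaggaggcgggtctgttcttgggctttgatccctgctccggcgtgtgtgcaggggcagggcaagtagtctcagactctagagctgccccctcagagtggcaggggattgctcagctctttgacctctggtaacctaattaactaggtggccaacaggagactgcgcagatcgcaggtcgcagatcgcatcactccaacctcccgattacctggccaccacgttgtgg
The Kmo window held this motif once, on the gene's strand, from -103 to -96 relative to the start. Of 27025 promoter windows of the same length, 1 per gene, 3.28% held it on either strand. The Haao window held none of the 6 motifs searched on both strands. Besides GAGGAAGT these were the shorter ETS core GGAAGT that it contains (24.1% of windows), the STAT site TTCNNNGAA (8.47%), the AP-1 site TGACTCA (5.17%), the aryl hydrocarbon receptor site TNGCGTG (5.12%) and the TATA box TATAAA (14.2%). Kmo held only GAGGAAGT and, within it, GGAAGT. Members that did not pass also held motifs: Qprt held GGAAGT on each strand and TTCNNNGAA, and Tdo2 held TATAAA. The motifs were chosen after the values were seen, and a match describes letters, not a site in use.

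Of the 7 enzymes, 2 rose with Blnk, 0 fell and 5 did not pass the threshold, an adjusted p of 0.05 in limma with Benjamini-Hochberg adjustment over all genes. Over all 19938 genes, 3.61% passed, 2.51% upward and 1.10% downward. At an unadjusted p under 0.05, Kynu was also lower. The share of all genes at that cutoff was not taken, so the unadjusted counts here and below have no background. The median log2 fold change was 0.13 over the 7 enzymes and 0.00 over all genes. In 2 enzymes every Blnk sample was above every pMIG sample, and in 1 every Blnk sample was below, where 20.0% of all genes stood apart, 11.8% upward and 8.15% downward.

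**Figure D1:**
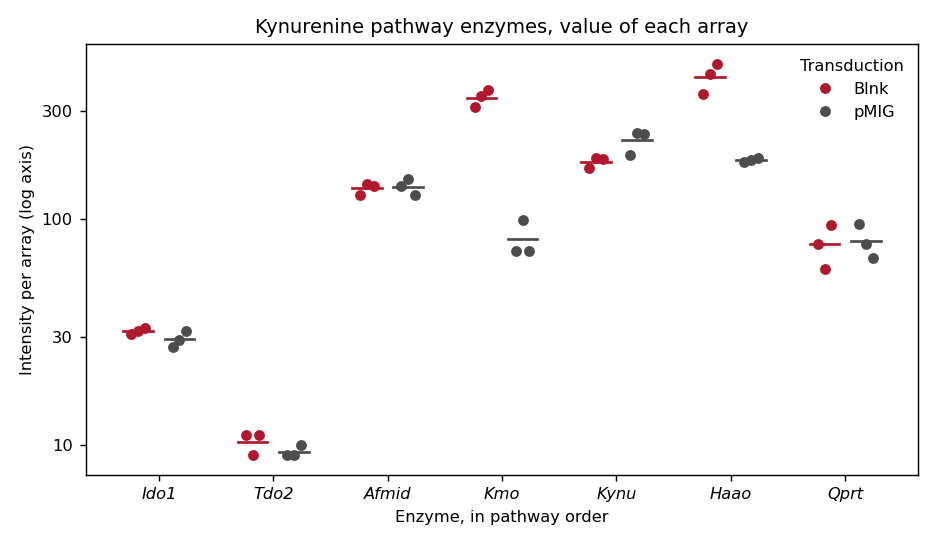
Intensity of the 7 enzymes on each of the 3 Blnk arrays (red) and 3 pMIG arrays (grey), on a log axis, with the enzymes in pathway order. Points are arrays and bars are group means; the Blnk arrays lie at 311 to 369 for Kmo and 356 to 485 for Haao, above the pMIG arrays at 72 to 99 and 178 to 186.

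Kmo, which makes 3-hydroxykynurenine, had intensities of 311, 348 and 369 in the Blnk samples, against 72, 99 and 72 in the pMIG samples. Every Blnk sample was more than 3 times as bright as any pMIG sample, and the spread within each group was small beside the gap. The means were 343 ± 29.4 with Blnk and 81.0 ± 15.6 with pMIG (SD, n = 3 each), a 4.27-fold rise (log2 fold change 2.09, SE 0.136, 95% interval 1.78 to 2.41; limma adjusted p = 0.000190). The pMIG values lay inside the range of genes of other tissues given below, so part of them may be background. If so, the fold would be a lower bound, which was not tested. With 3 samples per group the exact two-sided permutation test cannot go below p = 0.1, which is what Kmo, Haao and Kynu gave.

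Haao, the dioxygenase that leads to quinolinate, had intensities of 356, 434 and 485 in the Blnk samples, against 178, 181 and 186 in the pMIG samples. The pMIG samples were nearly alike, while the Blnk samples spread, with the lowest still clear of all pMIG samples. The means were 425 ± 65.0 with Blnk and 182 ± 4.04 with pMIG (SD, n = 3 each), a 2.32-fold rise (log2 fold change 1.21, SE 0.113, 95% interval 0.95 to 1.48; limma adjusted p = 0.00111). Sample 1 was the lowest Blnk sample for Kmo, for Haao and for the Blnk transcript. The highest was sample 3 for Kmo and Haao, but sample 2 for the Blnk transcript (3342, against 3022 in sample 3). Both enzymes passed with any of the 6 arrays left out.

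Kynu encodes the pyridoxal phosphate-dependent enzyme that works between KMO and HAAO, and it did not rise with them. Its intensities were 167, 185 and 183 in the Blnk samples, against 192, 239 and 236 in the pMIG samples. All Blnk samples were below all pMIG samples, but the highest Blnk sample and the lowest pMIG sample were close. The log2 fold change was -0.31 (SE 0.101, 95% interval -0.55 to -0.08), with an unadjusted p of 0.0158 and a limma adjusted p of 0.182.

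Afmid, which makes kynurenine itself, had intensities of 127, 143 and 140 in the Blnk samples, against 140, 149 and 127 in the pMIG samples. The groups overlapped (log2 fold change -0.02, 95% interval -0.22 to 0.18; limma adjusted p = 0.953). The start of Afmid overlaps the Tk1 gene, a thymidine kinase, in the RefSeq table, and the labels do not say which bases the probe covers.

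Qprt, the last enzyme of the list, had intensities of 77, 60 and 94 in the Blnk samples, against 95, 77 and 67 in the pMIG samples. The samples of each group spread over most of the range of both groups. Its log2 fold change was -0.06, with a 95% interval of -0.48 to 0.36 that was the widest of the 7 (limma adjusted p = 0.929), so changes inside that range were not resolved.

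The genes of the first step were dim in both groups. Ido1 had intensities of 31, 32 and 33 in the Blnk samples, against 27, 29 and 32 in the pMIG samples. These groups touched (log2 fold change 0.13, 95% interval -0.06 to 0.32; limma adjusted p = 0.536). Tdo2 had intensities of 11, 9 and 11 in the Blnk samples, against 9, 9 and 10 in the pMIG samples. At this level the rounding of the deposited values to whole numbers makes steps of about the size of its difference (log2 fold change 0.14, 95% interval -0.09 to 0.37; limma adjusted p = 0.581).

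The deposited values carry no detection call, and probes differ in brightness for reasons other than transcript level, so the enzymes are not ranked by intensity. As a rough guide to background, 18 genes of other tissues, such as Ins2 of pancreatic islets and Myh6 of heart muscle, ranged from 9 to 116 on all arrays apart from Umod, at 210 to 249 in the Blnk samples and 289 to 321 in the pMIG samples, which fell (log2 fold change -0.45, limma adjusted p = 0.0364). Ido1, Tdo2 and Qprt lay inside 9 to 116 on every array. Kmo lay inside it on the pMIG arrays and above it on the Blnk arrays. Afmid, Kynu and Haao lay above it on all 6 arrays. Umod was set apart by its values, and with it kept the guide would reach 321. Only Haao on the Blnk arrays would then lie wholly above it. The hepatocyte marker Apoa2, at 104 to 133, also passed 116 on some arrays, so the guide does not settle which enzymes are expressed.

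**Figure D2:**
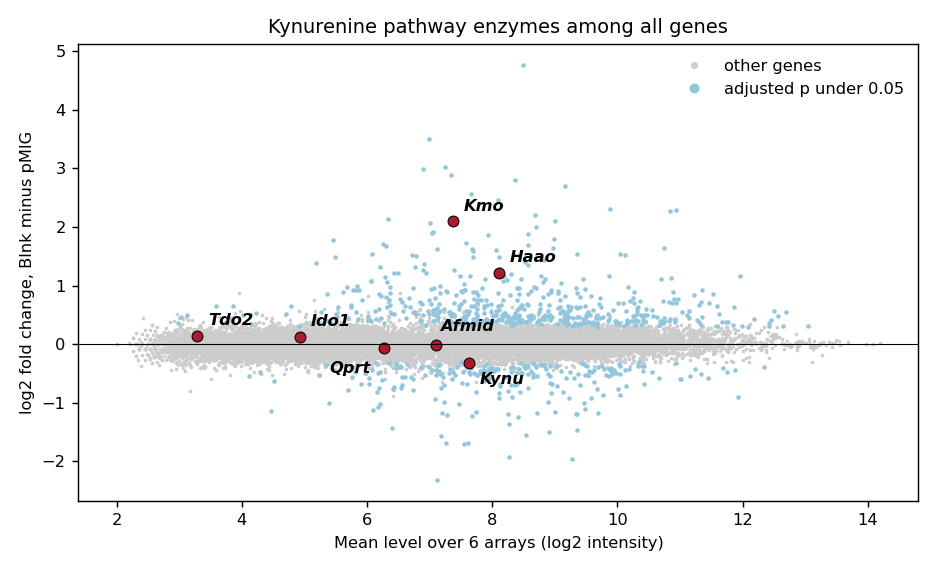
Log2 fold change (Blnk minus pMIG) against mean log2 intensity over 6 arrays for all 19938 genes, with the 7 enzymes in red and genes past an adjusted p of 0.05 in blue. Kmo at 2.09 and Haao at 1.21 lie among the blue points, and the other 5 enzymes lie within the grey band between -0.31 and 0.14.

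Other enzymes that act on tryptophan or kynurenine did not pass. Of 12 measured, 0 rose and 0 fell by limma, against 2.51% and 1.10% of all genes. At that share a list this short could hold none. At an unadjusted p under 0.05 none differed either, and the median log2 fold change was 0.01. Of the 12, 8 had a mean intensity below 100, within the guide to background. The 12 include Ido2, the relative of Ido1, at 44, 48 and 47 in the Blnk samples, against 56, 51 and 48 in the pMIG samples. Kyat1 and Kyat3, aminotransferases that turn kynurenine into kynurenic acid, had log2 fold changes of -0.11 and 0.02. Acmsd, which draws the HAAO product away from quinolinate, was dim at 13 to 15 in the Blnk samples and 14 to 15 in the pMIG samples. The brightest of the list were Got2, a mitochondrial aminotransferase of broad use (-0.13), and Gcdh, an enzyme of lysine and tryptophan breakdown (0.02).

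Genes of NAD synthesis after quinolinate and of NAD salvage had 0 of 11 up and 1 down, against 2.51% and 1.10% of all genes. At an unadjusted p under 0.05 it was 0 and 2, and the median log2 fold change was -0.06. The list also held the NAD kinases Nadk and Nadk2 and Nnmt, a methyltransferase of nicotinamide. Nmnat3, which makes NAD from its mononucleotide, had intensities of 135, 121 and 121 in the Blnk samples, against 159, 156 and 164 in the pMIG samples. Those groups did not overlap, and the log2 fold change was -0.35 (limma adjusted p = 0.0468). It no longer passed without Blnk sample 2 or 3 or any 1 pMIG sample, with adjusted p of 0.121 to 0.183. Nor did it pass with arrays centred on their medians (0.119) or with the replicate number as a block (0.167). Nadsyn1, the NAD synthetase of the route from quinolinate, stood at -0.12, and the salvage enzyme Nampt at -0.08 (limma adjusted p = 0.523 and 0.723). Nadk, the NAD kinase, stood at -0.03, and the nicotinamide riboside kinase Nmrk1 at -0.31 (limma adjusted p = 0.0922).

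Of 13 enzymes that consume NAD, 1 rose and 0 fell (against 2.51% and 1.10% of all genes), median -0.01. At an unadjusted p under 0.05, 3 were higher and 2 lower, with no share of all genes to set beside them. Parp3, an ADP-ribosyltransferase linked to DNA repair, had intensities of 173, 181 and 189 in the Blnk samples, against 113, 116 and 108 in the pMIG samples. The groups were clearly apart (log2 fold change 0.69, limma adjusted p = 0.00182). Parp1 and Parp2, its better known relatives, stood at -0.01 and -0.10. Of those that did not pass after adjustment, Sirt7 stood at 0.30, Parp14 at 0.27, Sirt3 at -0.25 and Sarm1 at -0.31, with limma adjusted p of 0.107 to 0.233.

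Genes for tryptophan import and for charging its tRNA had 1 of 10 members up and 1 down, against 2.51% and 1.10% of all genes. At an unadjusted p under 0.05 it was 1 and 2, and the median was 0.00. Slc43a2 averaged 255 ± 19.6 with Blnk and 162 ± 9.54 with pMIG, and Slc43a1 averaged 618 ± 41.5 with Blnk and 888 ± 45.6 with pMIG (SD, n = 3 each). Both are known as carriers of branched-chain amino acids, phenylalanine and methionine. Their log2 fold changes were 0.66 and -0.52 (limma adjusted p = 0.00579 and 0.0117). Slc43a1 no longer passed without Blnk sample 2 or 3 or pMIG sample 1 or 3 (adjusted p of 0.0538 to 0.0752). Slc7a5 and Slc3a2, the chains of the main tryptophan carrier, stood at 0.02 and -0.10, and the tryptophanyl-tRNA synthetase Wars at 0.11 (adjusted p = 0.623). Its mitochondrial counterpart Wars2 stood at -0.32 (limma adjusted p = 0.0833).

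Kynurenine and its products are known ligands of the aryl hydrocarbon receptor. Of 10 genes of this receptor and its targets, 0 rose and 0 fell by limma, against 2.51% and 1.10% of all genes. At an unadjusted p under 0.05, 1 was lower, Nqo1 at -0.19 (unadjusted p = 0.0454, limma adjusted p = 0.315). The list's median was -0.05. Of the 10, 8 had a mean intensity below 100, within the guide to background, so a change in them could be missed. Ahr itself was dim, at 47, 42 and 58 in the Blnk samples, against 56, 61 and 51 in the pMIG samples. Cyp1a1, a target gene of wide use as a readout, had intensities of 28, 29 and 30 in the Blnk samples, against 31, 32 and 25 in the pMIG samples. Arnt, the partner of the receptor, stood at 0.04 and the target Tiparp at -0.18.

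Among genes that induce or regulate IDO1 and TDO2, 2 of 10 rose and 0 fell, against 2.51% and 1.10% of all genes. At an unadjusted p under 0.05 it was 3 and 1, and the median was 0.12. Irf1, a transcription factor of the interferon response, had intensities of 375, 479 and 488 in the Blnk samples, against 271, 292 and 280 in the pMIG samples (log2 fold change 0.66, limma adjusted p = 0.0173). Its second, dimmer probe differed by -0.02, and the mean of both probes gave 0.32 (adjusted p = 0.175). Tgfb1, which encodes the cytokine TGF-beta 1, averaged 2867 ± 42.4 with Blnk and 2213 ± 58.3 with pMIG (SD, n = 3 each; log2 fold change 0.37, limma adjusted p = 0.0196). Irf1 no longer passed without Blnk sample 2 or 3 or any 1 pMIG sample (0.0638 to 0.101), nor with intensities below 16 set to 16 (0.0620). Tgfb1 did not pass whichever array was left out (0.0525 to 0.0982), and it was at 0.29 after repeated quantile normalization (0.0519). Nor did Tgfb1 pass with the replicate number as a block (0.113). Ifng was dim, at 47.0 ± 2.65 with Blnk and 37.3 ± 3.21 with pMIG (SD, n = 3 each; limma adjusted p = 0.0949), and Bin1 stood at -0.02. Nr3c1, the glucocorticoid receptor that induces Tdo2 in liver, stood at -0.17 (limma adjusted p = 0.304). Of 4 genes that supply the cofactors FAD and pyridoxal phosphate, 0 rose and 0 fell by limma (2.51% and 1.10% of all genes). None of the 4 differed at an unadjusted p under 0.05, median 0.13, with Rfk at 0.14 and Pdxk at 0.16.

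**Figure D3:**
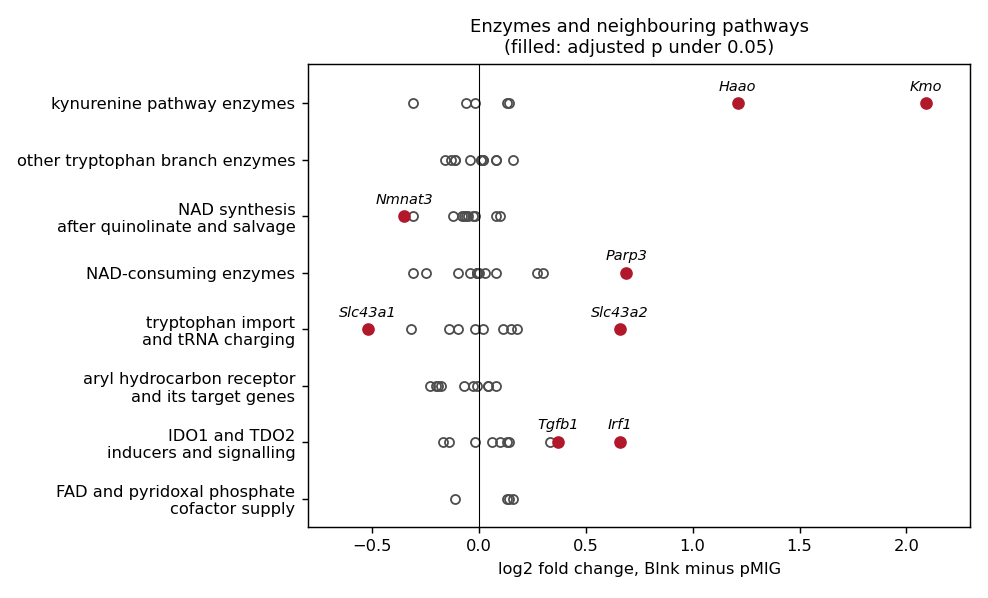
Log2 fold change (Blnk minus pMIG) of each measured gene of the kynurenine pathway and of 7 neighbouring gene lists, with genes past an adjusted p of 0.05 filled and named. Kmo and Haao lie at 2.09 and 1.21, and the 6 named genes of the other lists lie between -0.52 and 0.69.

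The genes whose pattern over the 6 arrays was nearest to that of Kmo were Gimap3, Lifr, Ncf1, Cfp and Ifi30, by the Euclidean distance between log2 intensities centred on each gene's mean (0.226 to 0.456). Gimap3 encodes a GTPase of lymphocytes, and it averaged 828 ± 62.2 with Blnk and 208 ± 21.2 with pMIG (SD, n = 3 each). Lifr encodes a receptor chain for leukemia inhibitory factor, Ncf1 a subunit of the phagocyte NADPH oxidase, Cfp the complement regulator properdin and Ifi30 a lysosomal thiol reductase. Nearest to Haao were Pld4, Sp140, Gimap6, Spib and Cd74 (0.151 to 0.199). Spib, an ETS transcription factor of B cells, had intensities of 2381, 2943 and 2950 in the Blnk samples, against 1223, 1331 and 1232 in the pMIG samples. Cd74, the invariant chain of class II antigen presentation, averaged 5981 ± 515 with Blnk and 2663 ± 28.3 with pMIG (SD, n = 3 each). With 6 arrays in 2 groups, the size of the group difference largely sets this likeness, and it is given without a test.

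**Figure D4:**
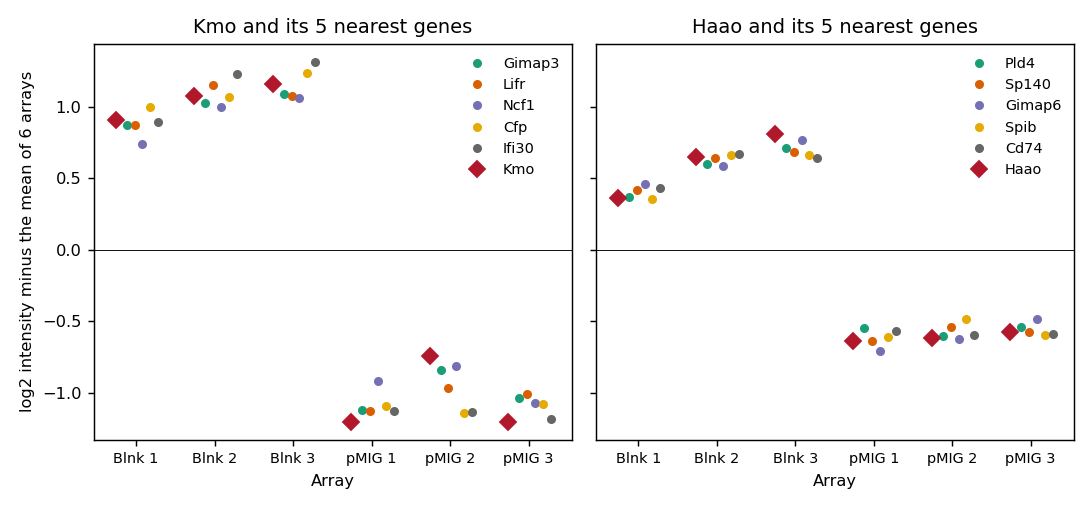
Log2 intensity minus the gene's mean over 6 arrays, for Kmo (left) and Haao (right, both as red diamonds) and the 5 nearest genes of each (circles), on the 3 Blnk and 3 pMIG arrays. All plotted genes are above 0 on every Blnk array and below 0 on every pMIG array, with a larger gap for Kmo (2.09) than for Haao (1.21).

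Markers of other cells were set beside these rises, since Kmo is also known from macrophages and Haao from liver. Of 14 macrophage and monocyte markers, 1 rose and 0 fell (against 2.51% and 1.10% of all genes), and 12 had a mean intensity below 100. Their summed intensity was 738 to 835 in the Blnk samples and 618 to 650 in the pMIG samples. Fcgr1, an Fc receptor, rose and averaged 242 ± 13.9 with Blnk and 145 ± 13.4 with pMIG, and Cd68 averaged 143 ± 28.3 with Blnk and 93.7 ± 11.0 with pMIG (SD, n = 3 each; limma adjusted p = 0.00377 and 0.0866). The defining markers Csf1r, at 34 to 37 in the Blnk samples and 32 to 39 in the pMIG samples, and Lyz2, at 31 to 33 in the Blnk samples and 28 to 31 in the pMIG samples, stayed within the guide to background.

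Of 10 dendritic cell markers, 2 rose and 0 fell (against 2.51% and 1.10% of all genes). Their summed intensity was 1991 to 2362 in the Blnk samples and 1514 to 1648 in the pMIG samples. Of the 10, 8 had a mean intensity below 100 and Ccr7 was the brightest, so the gap between the sums mainly follows Ccr7. Siglech, a lectin of plasmacytoid dendritic cells, averaged 118 ± 18.6 with Blnk and 53.0 ± 5.57 with pMIG, and Ccr7, a chemokine receptor that lymphocytes also carry, averaged 1395 ± 174 with Blnk and 853 ± 53.7 with pMIG (SD, n = 3 each; limma adjusted p = 0.00313 and 0.0103). Bst2 did not pass (-0.11), and Itgax, the integrin that defines most dendritic cells, had 26 to 28 in the Blnk samples and 23 to 28 in the pMIG samples. Siglech lay inside the 9 to 116 of the guide to background on the pMIG arrays, at 48 to 59, and in Blnk sample 1, at 98. The part of the Fcgr1, Siglech and Ccr7 signals in the rises of Kmo and Haao was not tested. Of 9 hepatocyte markers, 0 rose and 0 fell by limma, against 2.51% and 1.10% of all genes (1 lower, Apoa1, at an unadjusted p of 0.0405). Their sums were 353 to 384 in the Blnk samples and 377 to 414 in the pMIG samples. The brightest were Apoa2, at 117 ± 14.8 with Blnk and 120 ± 7.94 with pMIG, and Apoa1, at 68.7 ± 1.53 with Blnk and 79.0 ± 6.93 with pMIG (SD, n = 3 each). Of 8 granulocyte and 8 T and NK cell markers, 0 rose and 0 fell by limma, against 2.51% and 1.10% of all genes. None of these markers differed at an unadjusted p under 0.05. Their brightest members were Camp (-0.07) and Prtn3 (-0.13), and Cd8a (0.12) and Cd3e (0.01). In bulk samples, a change in the share of cells with a transcript and a change per cell cannot be told apart.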

How the data were processed

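Gene expression was measured in 6 samples on 6 Affymetrix arrays, 3 transduced with Blnk and 3 with pMIG. Each deposited value is a linear intensity, a whole number from 3 to 22187, made by the authors with RMA, per the submitters' processing notes, which give no version. RMA ends in log2 values, so these were probably converted back and rounded, which is inferred from the numbers alone. No depth exists for arrays, and their number limits the precision.

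Probes were named from GEO's platform annotation. Of 35421 probes, 21789 had 1 symbol, 1621 had several and 12011 had none here. Each of 19938 genes was represented by its brightest single-symbol probe (999 genes had several). log2 was taken of the intensities with nothing added. The test was limma 3.58.1 (lmFit, then eBayes; R 4.3.3), two-sided, with the group as the only term, with Benjamini-Hochberg adjustment over all genes and a threshold of 0.05. Tested on simulated data of this comparison with 19938 genes, the fit recovered 89 of 100 genes changed by 1 and 98 of 100 changed by 2 on the log2 scale. The simulated noise was independent between genes and arrays, and changes smaller than 1 were not simulated. The recovery of smaller changes is therefore not known. Tables and figures were made with Python 3.11.15.

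The named genes were the 7 enzymes, Blnk, list members past the threshold and the 2 brightest of each list, and the 5 nearest genes of each changed enzyme; further members were named after their values were seen. The enzymes and lists were chosen with earlier results of these data known. Some genes of these lists were not analysed here. Alternatives were the replicate number as a block, repeated quantile normalization, median centring, a filter on dim genes, an intensity trend, a floor of 16, the mean of all probes of a gene, and each array left out.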

Additional observations from a re-analysis of the deposited data

How the results depend on the processing

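Kmo and Haao were the enzymes that passed, both upward, in all 13 alternatives, at log2 fold changes of 2.02 to 2.25 and 1.11 to 1.34 (adjusted p up to 0.00862 and 0.0194). Kynu stayed negative and did not pass (-0.41 to -0.26, adjusted p 0.0644 to 0.431). With 1 array left out, values near 0 changed sign: Afmid ranged from -0.08 (without pMIG sample 3) to 0.03 (without Blnk sample 1 or pMIG sample 2), and Qprt from -0.21 (without Blnk sample 3) to 0.11 (without Blnk sample 2; 0.08 without pMIG sample 1). Ido1 and Tdo2 had no value once dim genes were left out. Deviations of same-numbered samples from their group means correlated at -0.187, 0.0578 and -0.120, and those of differently numbered samples at -0.21 to 0.28. With 3 samples per group this cannot show whether the numbers pair the samples, and the labels do not say. With the replicate number as a block, 289 genes passed (208 up, 81 down), against 720 (500 up, 220 down) without it, and among the neighbouring lists Nmnat3 and Tgfb1 no longer passed (adjusted p 0.167 and 0.113), leaving 4 genes (3 up, 1 down). Without dim genes 1228 passed (807 up, 421 down), 4 list genes lower among them, and with an intensity trend 1313 (891 up, 422 down). With arrays centred, 1 list gene was lower. With 1 array left out, which weakens the test by construction, 267 to 437 genes passed (195 to 304 up, 72 to 133 down), with the lowest count without pMIG sample 3, and 2 to 5 list genes (2 to 3 up, 0 to 2 down), against 6 (4 up, 2 down). The cause of the other moves was not tested. Marker genes and chromosome neighbours were not followed through the alternatives. Among them Cd79a, Umod and Ctso were near the threshold (limma adjusted p = 0.0468, 0.0364 and 0.0332). Signal near background limits what can be said of Ido1, Tdo2 and Qprt, and of Kmo in the pMIG samples.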

Other observations

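Genes beside the changed enzymes on the chromosome, the nearest 2 measured on each side, did not pass. Around Kmo these were Fh1, which encodes fumarase (log2 fold change 0.14, limma adjusted p = 0.440), Rgs7 (-0.10), Opn3, which encodes an opsin (0.55, limma adjusted p = 0.0598), and Chml (-0.08). Opn3, the nearest on the far side, had intensities of 217, 175 and 160 in the Blnk samples, against 129, 133 and 112 in the pMIG samples, and its groups did not overlap. Around Haao, Mta3, a chromatin protein, stood at 0.08, Kcng3 at -0.32, Zfp36l2, an RNA-binding protein, at -0.19 and Thada at -0.11, with limma adjusted p of 0.232 to 0.727.

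Ctso, a cathepsin and the nearest measured neighbour of Tdo2 on its lower side, rose, with 363, 380 and 399 in the Blnk samples, against 247, 288 and 296 in the pMIG samples (log2 fold change 0.46, limma adjusted p = 0.0332), while Tdo2 stayed at 9 to 11 on every array. Ctso was named after its value was seen.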
